A study of Mus musculus with 6 samples.

Results

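Imprinted genes are transcribed mainly from the copy inherited from 1 parent, because methylation laid down in the egg or the sperm marks CpG-rich control regions and is kept in the embryo. Many of them are active in the brain, where they take part in growth, progenitor upkeep and neuronal function. Several lie inside a larger host gene on the opposite strand, and Zrsr1, an intronless gene within Commd1, is such a case. Of 10 imprinted genes followed here, Zrsr1 was higher in the Nrg-1β1 libraries and the other 9, its host Commd1 among them, did not pass the test. Over all genes 1.06% passed, and Zrsr1 still passed in only 4 of 18 alternative settings.

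The 10 genes, Zrsr1, Commd1, Peg3, Ndn, Nnat, Snrpn, Impact, Nap1l5, Plagl1 and Dlk1, were found by symbol among 27102 genes of the deposited table, of which 20323 had values. They were chosen by name as imprinted genes with the differences between the groups already known, Zrsr1 for its large difference, so values of that comparison describe the members and test nothing. The libraries came from GFP-positive cells of the hippocampus, collected by magnetic sorting, and each library is taken here as 1 mouse. All mice carried Nestin-CreERT2 and Rosa26-mGFP, so that cells with an active Nestin promoter and their progeny are marked. All had eaten cuprizone, a copper-binding compound that strips myelin, for 10 weeks, followed by 4 weeks without it. During recovery 3 mice received vehicle (0.1% bovine serum albumin in saline) and 3 received neuregulin 1 beta 1 (Nrg-1β1), a ligand of ErbB receptors. Its dose is 60 µg per kg per day in the series text, while the sample labels give grams. Age is not given in the labels, and the question is what the treatment changes in these cells.

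Values are given as log2(normalized count + 4), the form in which they were deposited, and whole reads could be recovered from them. Vehicle libraries 1 to 3 held 72953034, 1075813 and 47076006 reads, and those of Nrg-1β1 567073, 662909 and 1327003, so 1 read weighs far more in a shallow library. Xist and Y-linked reads were unevenly spread: Xist had 216 to 3255 reads per vehicle library and 1 to 3 per Nrg-1β1 library, while Ddx3y had 82 and 1 in vehicle libraries 1 and 2, 1994 in vehicle library 3 and 15 to 29 with Nrg-1β1. In normalized counts Xist stood at 197, 667 and 63.2 with vehicle and at 3.04 to 15.3 with Nrg-1β1. Ddx3y stood at 4.96, 3.09 and 121 with vehicle and at 45.6 to 150 with Nrg-1β1. Vehicle library 3 thus held both, and the reason was not tested. These reads differed with the group, sex was not a term in the fit, and its part in the group differences, that of Zrsr1 included, was not tested. Of 10 radial-glia-like markers, all with reads in every library, Sox1 was called higher (1.96, adjusted p = 0.0194, limma) and the other 9 were not called. Of the 10 differences 5 were positive and 5 negative. Nes, the gene whose promoter marks the cells, had 6 reads or more and differed by -1.65 (adjusted p = 0.0582, limma). Summed normalized counts of 10 endothelial markers ran from 648 to 3137 in vehicle and from 119 to 143 in Nrg-1β1, and 9 choroid plexus and ependymal markers from 1547 to 5355 and from 189 to 301. For 10 microglial markers the sums were 7404 to 12411 and 2743 to 3515. Other sums were higher with Nrg-1β1. For 9 astrocyte markers, 0 of them called, they were 26184 to 38307 in vehicle against 47859 to 48467. For 12 neuroblast and neuron markers they were 1846 to 3210 against 3980 to 5629. Of these 12 genes 0 were called, and 9 differences were positive and 3 negative. The negative ones were Eomes (-0.93) and Neurod1 (-0.92), with 0 to 2 reads per Nrg-1β1 library, and Calb1 (-0.22). For the radial-glia-like markers the sums were 2423 to 2652 against 3249 to 3567. The sums of 9 oligodendrocyte markers overlapped, as did those of 7 oligodendrocyte progenitor markers. Lower with Nrg-1β1 were also the sums of 11 pericyte and fibroblast markers (253 to 689 against 117 to 155) and of 4 erythroid markers (3291 to 9484 against 438 to 1994). The part of these markers in the differences of the imprinted genes was not tested. In such bulk samples fewer cells of a type and less RNA per cell cannot be told apart.

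The promoters of Zrsr1 and of its host are shown because the comparison turns on this nested pair. Each window holds 250 bases before and 50 after a RefSeq start on GRCm38.p6, and CpG dinucleotides are in capitals. The build used for the deposited values is not given in the sources used here. The Zrsr1 window is chr11:22971755-22972054 on the plus strand and that of the Commd1 start shown is chr11:22982235-22982534 on the minus strand. RefSeq gives Commd1 a second start, nearer to the Zrsr1 start and downstream of it in the direction of Zrsr1. Its window, chr11:22972817-22973116 on the minus strand, is not shown.
Zrsr1 promoter: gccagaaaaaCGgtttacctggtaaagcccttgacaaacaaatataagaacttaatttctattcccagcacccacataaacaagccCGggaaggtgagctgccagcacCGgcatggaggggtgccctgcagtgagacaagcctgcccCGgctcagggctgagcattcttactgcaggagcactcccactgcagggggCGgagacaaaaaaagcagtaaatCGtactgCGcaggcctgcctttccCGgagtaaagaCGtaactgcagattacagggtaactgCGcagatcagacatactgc
Commd1 promoter: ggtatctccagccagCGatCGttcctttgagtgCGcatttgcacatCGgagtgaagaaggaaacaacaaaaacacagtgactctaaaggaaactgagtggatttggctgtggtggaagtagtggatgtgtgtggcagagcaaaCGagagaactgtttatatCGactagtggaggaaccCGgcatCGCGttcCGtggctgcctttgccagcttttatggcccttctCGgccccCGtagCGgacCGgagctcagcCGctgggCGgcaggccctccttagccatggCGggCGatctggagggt
The Zrsr1 window held 10 CpG, the Commd1 window shown 18 and the other Commd1 window 17, where the median of 32851 windows was 7. The hexamer TGCCGC, the core motif of the imprint-keeping protein ZFP57, was searched on both strands and was absent from the Zrsr1 window and the other Commd1 window. It occurred 1 time in the Commd1 window shown and in 11.6% of all windows. Methylation and the parental origin of the reads were not measured.

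Zrsr1 encodes a zinc-finger protein related to the small subunit of the splicing factor U2AF, which binds the 3′ splice site, and works with its X-linked relative Zrsr2 in splicing of minor introns. With vehicle its log2 value was 7.52, 8.19 and 7.04 in libraries 1 to 3, from 2961, 93 and 2107 reads. With Nrg-1β1 it was 11.92, 11.60 and 8.70, from 747, 609 and 136 reads. All 3 Nrg-1β1 libraries lay above all 3 vehicle libraries, and Nrg-1β1 libraries 1 and 2 stood far above the rest. The mean was 7.58 ± 0.58 with vehicle against 10.74 ± 1.77 with Nrg-1β1 (SD, n = 3 each). The difference was 3.16 ± 0.57 (SE, moderated by limma towards the trend over all genes). It was the fourth largest among the genes called higher, with an adjusted p of 0.00965 in the limma fit over all genes, given as a description. When the deep vehicle libraries 1 and 3 were set aside, with vehicle library 2 alone in its group and assumed to vary like the Nrg-1β1 group, the difference was 2.56 and the call was lost (adjusted p = 0.826, limma). Without any 1 of the 6 libraries it lay between 2.57 and 4.18 and was not called either.

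On the linear scale, Zrsr1 stood at 3859, 3111 and 413 normalized counts with Nrg-1β1 and at 179, 287 and 127 with vehicle. Nrg-1β1 libraries 1 and 2 exceeded Nrg-1β1 library 3 by 9.34 and 7.53 times. That library in turn exceeded vehicle library 2, the highest of its group, by 1.44 times. The 95% counting intervals of these neighbours, 347 to 489 and 232 to 352 normalized counts, overlapped slightly, and the ratio itself had an exact 95% counting interval of 1.10 to 1.89. As shares of all reads the same libraries had a ratio of 1.19 (0.904 to 1.56), so how far their order is resolved depends on the scaling. Zrsr1 took 0.132%, 0.0919% and 0.0102% of all reads with Nrg-1β1 and 0.00406%, 0.00864% and 0.00448% with vehicle. The size of the group difference thus rests mainly on Nrg-1β1 libraries 1 and 2.

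**Figure D1:**
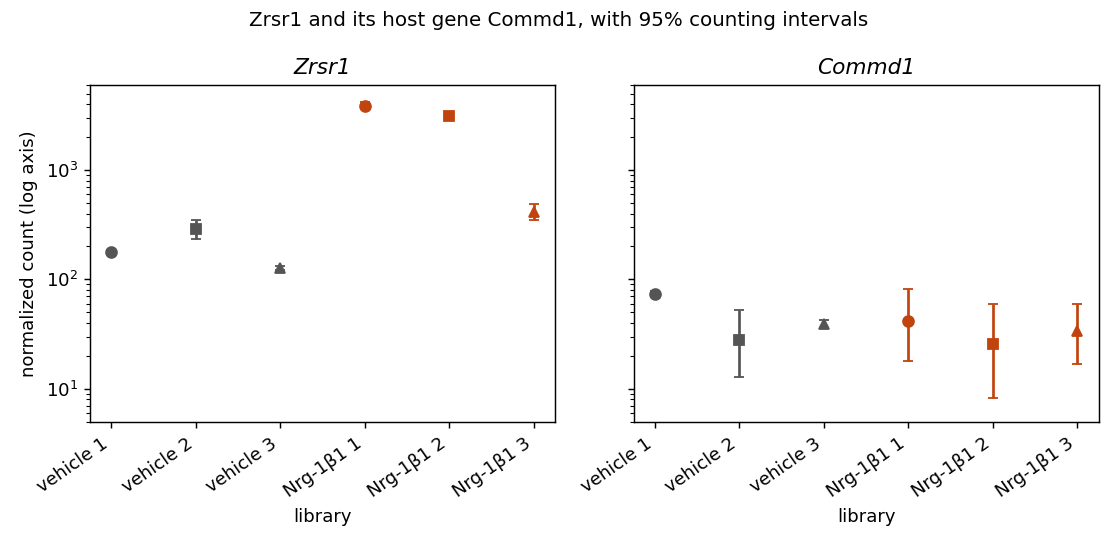
Normalized counts of Zrsr1 (left) and Commd1 (right) in each library, on a shared log axis, with exact 95% counting intervals as bars. Zrsr1 is near 3859 and 3111 in Nrg-1β1 libraries 1 and 2 and between 127 and 413 in the other libraries, while Commd1 lies between 25.5 and 73.8 throughout.

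Commd1 encodes a protein of endosomal sorting with a known role in copper handling, and in the adult mouse brain it is transcribed mainly from the maternal copy. Its log2 value was 6.28, 4.99 and 5.43 with vehicle and 5.50, 4.88 and 5.23 with Nrg-1β1. The groups overlapped in this host gene, and its difference was -0.36 ± 0.43 (SE, adjusted p = 0.734, limma). Commd1 had 8, 5 and 11 reads with Nrg-1β1 and 9 in vehicle library 2, so a moderate change was not detectable at this depth. Without the deep vehicle libraries 1 and 3 its difference turned to 0.21. In the GENCODE M21 annotation Zrsr1 lies on the opposite strand within Commd1, and 412 of its 4492 exon bases (9.17%) are also exon bases of Commd1 transcripts. The strand setting of the counting is not given, so reads in that stretch cannot be assigned to either gene with certainty.

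Within each library Zrsr1 minus Commd1, a difference of log2 values that does not depend on the scaling of the library apart from the added constant, was 1.24, 3.20 and 1.61 with vehicle and 6.41, 6.72 and 3.48 with Nrg-1β1. Nrg-1β1 library 3 exceeded vehicle library 2 by little, and the other libraries were well separated. Its mean was 2.01 ± 1.04 with vehicle and 5.54 ± 1.79 with Nrg-1β1 (SD, n = 3 each). The groups thus differed by 3.52 ± 1.19 (SE without the moderation that limma applies), which is a description and was not tested. Zrsr2, the X-linked relative of Zrsr1, differed by -0.05 ± 0.32 (SE, adjusted p = 0.953, limma), with 18 to 57 reads in the Nrg-1β1 libraries. Zrsr1 and Zrsr2 have related sequences, so the counting could have split some reads between them.

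**Figure D2:**
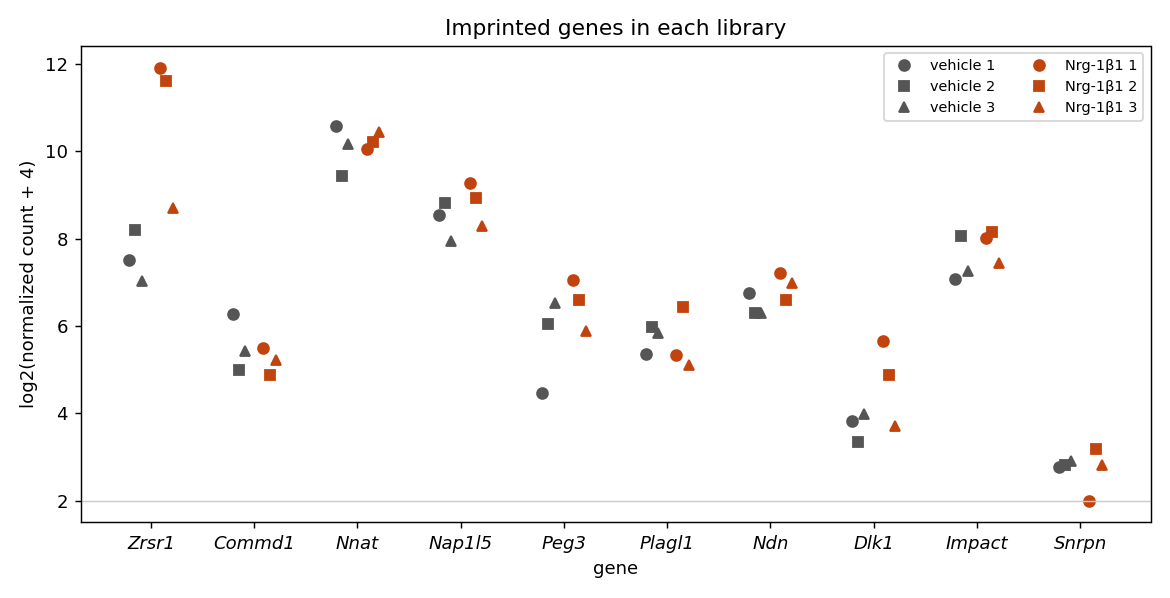
Log2(normalized count + 4) of the 10 imprinted genes in each library, with vehicle in grey and Nrg-1β1 in orange and marker shape giving the library number. Only Zrsr1 has groups that do not overlap, and the grey line at 2 marks a gene with no read.

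Of the 10 genes, 1 was called higher, 0 lower and 9 were not called, where 0.438% of all 20323 genes were called higher and 1.06% in either direction. The groups did not overlap in 1 of the 10, against 17.7% of all genes. The median difference of the 10 was 0.40, against 0.03 over all genes, and 7 of the 10 differences were positive. Only 6 of the 10 had at least 10 reads in every library. As the members were picked with this contrast in view, nothing is read from these counts.

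Nnat and Nap1l5 are, like Zrsr1, paternally expressed genes inside a host on the opposite strand. Nnat, which encodes the membrane proteolipid neuronatin, had log2 values of 10.58, 9.43 and 10.17 with vehicle and 10.05, 10.22 and 10.45 with Nrg-1β1. The Nrg-1β1 values lay within the vehicle range, and the difference was 0.18 ± 0.32 (SE, adjusted p = 0.813, limma). It turned to -0.14 without vehicle library 2 and to -0.16 after quantile normalization. Its host Blcap stood at 7.40, 6.50 and 6.86 with vehicle and 7.65, 7.34 and 7.89 with Nrg-1β1 and its difference of 0.71 ± 0.31 (SE) did not pass (adjusted p = 0.338, limma). Nnat minus Blcap was 3.14 ± 0.19 with vehicle and 2.61 ± 0.24 with Nrg-1β1 (SD, n = 3 each). Between the groups this value differed by -0.53 ± 0.18 (SE), opposite in sign to that of Zrsr1 and Commd1, and neither was tested.

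Nap1l5, a member of the nucleosome assembly protein family, had log2 values of 8.53, 8.82 and 7.94 with vehicle and 9.26, 8.93 and 8.28 with Nrg-1β1. The groups overlapped, and the difference was 0.39 ± 0.32 (SE, adjusted p = 0.664, limma). Its host Herc3, a ubiquitin ligase gene, differed by 0.51 ± 0.36 (SE) without passing. Nap1l5 minus Herc3 was 2.84 ± 0.41 with vehicle and 2.73 ± 0.26 with Nrg-1β1 (SD, n = 3 each), within the spread of each group. In the annotation neither Nnat nor Nap1l5 shares an exon base with its host, unlike Zrsr1.

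Peg3 and Plagl1 encode zinc-finger transcription factors, and Plagl1 is known to regulate other imprinted genes. Peg3 had log2 values of 4.47, 6.04 and 6.51 with vehicle and 7.06, 6.58 and 5.88 with Nrg-1β1. Vehicle library 1 was low, with 301 reads against 1445 in the similarly deep vehicle library 3. The difference of 0.83 ± 0.47 (SE) did not pass (adjusted p = 0.479, limma), and against vehicle library 3 alone it was -0.0084. Plagl1 stood at 5.36, 5.97 and 5.84 with vehicle and 5.33, 6.42 and 5.10 with Nrg-1β1, with overlapping groups. Its difference was -0.10 ± 0.42 (SE) and changed sign in several settings.

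Ndn, which encodes the MAGE family protein necdin of postmitotic neurons, had log2 values of 6.76, 6.29 and 6.30 with vehicle and 7.22, 6.58 and 6.97 with Nrg-1β1. The groups touched only through vehicle library 1 and Nrg-1β1 library 2. The difference of 0.47 ± 0.32 (SE) missed the threshold (adjusted p = 0.584, limma). Dlk1 encodes a Notch-ligand-like protein with a role in the adult stem cell niche. Its log2 values were 3.82, 3.35 and 3.98 with vehicle and 5.66, 4.88 and 3.71 with Nrg-1β1, with Nrg-1β1 library 3 inside the vehicle range. This is the same order of Nrg-1β1 libraries as in Zrsr1, but it rests on 9, 5 and 3 reads, and the difference of 1.04 ± 0.56 (SE) did not pass (adjusted p = 0.461, limma).

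Impact encodes a protein, abundant in mouse neurons, that holds back activation of the translation kinase GCN2. It had log2 values of 7.08, 8.06 and 7.27 with vehicle and 8.01, 8.15 and 7.44 with Nrg-1β1. The deep vehicle libraries 1 and 3 were the lowest, and vehicle library 2 lay among the Nrg-1β1 values. The difference was 0.40 ± 0.32 (SE, adjusted p = 0.662, limma) and turned to -0.19 without these deep libraries. Snrpn, the gene of the neuronal Sm protein SmN, had 47, 1 and 58 reads with vehicle and 0, 1 and 1 with Nrg-1β1. At 0 of 567073 reads, Nrg-1β1 library 1 allows a level of up to 15.5 normalized counts, above the 2.85 to 3.51 of the vehicle libraries, so a fall was not detectable at this depth. Nrg-1β1 libraries 2 and 3 stood at 5.11 and 3.04 normalized counts, each from 1 read. Snurf, which shares exon bases with Snrpn in the annotation, was blank in all libraries, and how the counting treated such shared reads is not given.

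**Figure D3:**
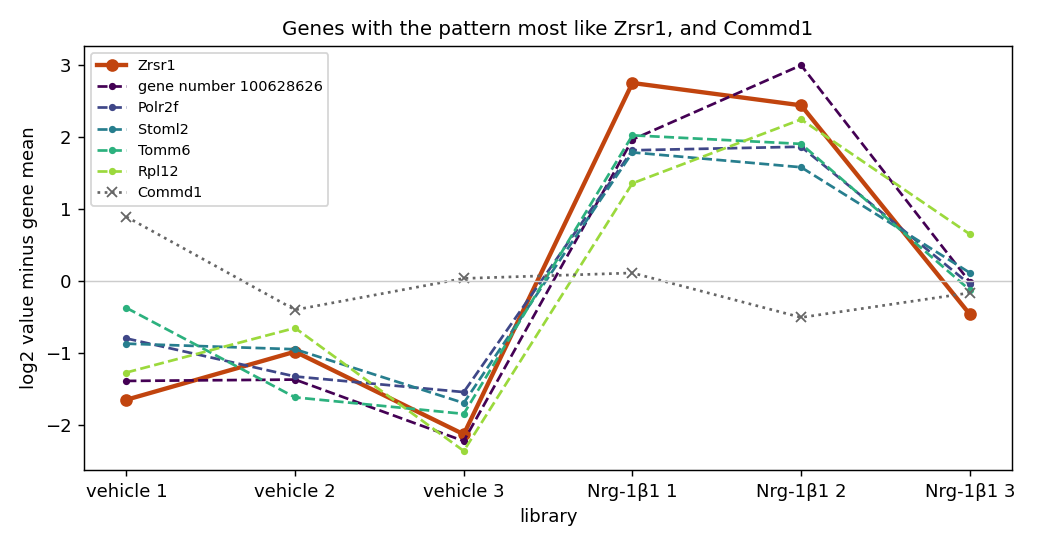
Log2 values minus each gene's own mean over the 6 libraries for Zrsr1 (thick line), the 5 genes with the most similar pattern (dashed) and Commd1 (dotted). The dashed lines peak in Nrg-1β1 libraries 1 and 2 as Zrsr1 does, which follows from how these genes were chosen. Commd1 stays within 1 log2 unit of its mean.

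The spread of Zrsr1 within the Nrg-1β1 group was itself wide. Its range of 3.21 there was matched or passed by 6 of 5540 genes with at least 10 reads in every library, Zrsr1 included, where the median range was 0.62. The other 5 were Bc1, Rplp2, Rpl10a, Gm9234 and mt-Atp8, named after their values were seen. Among the other 9 imprinted genes the widest Nrg-1β1 range was 1.94, in Dlk1. Within vehicle the range of Zrsr1 was 1.15, and 15.3% of these genes had at least that.

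By root mean square difference over the 6 libraries, after centring each gene on its mean, the gene closest to Zrsr1 of 5539 was a row with only the gene number 100628626, at 0.48. Its log2 values were 7.55, 7.56 and 6.71 with vehicle and 10.90, 11.93 and 8.92 with Nrg-1β1. Next came the RNA polymerase II subunit gene Polr2f (0.65), the mitochondrial membrane gene Stoml2 (0.68), the mitochondrial import gene Tomm6 (0.71) and the ribosomal protein gene Rpl12 (0.77). Polr2f, for example, had values of 5.77, 5.25 and 5.03 with vehicle and 8.39, 8.44 and 6.53 with Nrg-1β1. All 5 were highest in Nrg-1β1 libraries 1 and 2 and lower in library 3, which follows from choosing them for likeness over these same libraries. None belongs to the 10 imprinted genes, but only genes with at least 10 reads in every library could enter. That limit left out Commd1, Plagl1, Dlk1 and Snrpn. Without the limit on reads, the closest of the 10 was Dlk1 at 1.29, and Commd1 was the most distant at 2.13.

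Of 44 further imprinted genes with values 1 was called, which is 2.27% against 1.06% of all genes. Only 14 of the 44 had at least 10 reads in every library, and 6 had 0 reads in all Nrg-1β1 libraries. A change in many of them was thus not detectable at this depth. Of the 19 paternally expressed genes among them 0 were called in the limma fit (3 had an unadjusted p under 0.05), and of the 25 maternally expressed or maternally biased genes 1 was lower and 0 higher. Their median differences were 0.08 and -0.07. An unadjusted p under 0.05 was found for 6 of these 44 genes and for 2644 of all 20323. Summed over the 28 paternally expressed genes with values the level was 2803 to 3145 normalized counts in vehicle and 3236 to 6994 in Nrg-1β1, and without Zrsr1 it was 2516 to 2966 and 2823 to 3192. Without Zrsr1 the ranges of the groups overlapped.

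The gene that fell was Atp10a, which encodes a phospholipid flippase. It had 422, 17 and 1713 reads with vehicle and 1, 0 and 1 with Nrg-1β1. The difference was -3.15 ± 0.57 (SE, adjusted p = 0.0106, limma), and the level of the pooled vehicle reads was 23.2 times that of Nrg-1β1 (exact 95% counting interval 6.40 to 191). Of the 10 endothelial markers 8 were called lower and all 10 differences were negative, where 127 of all 20323 genes were called lower. Their summed levels were 648 to 3137 in vehicle and 119 to 143 in Nrg-1β1, and their part in the Atp10a difference was not tested. In vehicle libraries 1 to 3 Atp10a had log2 values of 4.89, 5.82 and 6.75 and the endothelial sums were 1191, 648 and 3137, so both were highest in library 3 and the other libraries stood in opposite order. The Atp10a difference was -2.68 without vehicle library 3 and was not called then (adjusted p = 0.262, limma), nor without vehicle library 2 or any 1 of the Nrg-1β1 libraries (-3.41 to -2.81).

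Genes that act beside Zrsr1 were also followed. Of 18 genes of 3′ splice site recognition and of 12 of the minor spliceosome, Zrsr1 was the only one called in either list. Over all genes 1.06% were called, so few calls are expected in lists of 12 to 20 genes. Depth was low as well: the 11 minor spliceosome genes other than Zrsr1 together had 84, 98 and 237 reads in Nrg-1β1 libraries 1 to 3. The minor spliceosome list summed to 650 to 941 normalized counts in vehicle and 1133 to 4293 in Nrg-1β1, and without Zrsr1 to 491 to 762 and 434 to 720. Of 20 genes that keep imprints, such as the methyltransferases and Trim28, 0 were called (1 had an unadjusted p under 0.05). Among those with at least 10 reads in a library of each group, the smallest p were those of the chromatin genes Arid4b, at -0.99 ± 0.35, and Arid4a, at -0.63 ± 0.38 (SE, adjusted p = 0.209 and 0.524, limma). Smchd1, with 6 to 8 reads in the Nrg-1β1 libraries, had a smaller p than Arid4a, at -0.69 ± 0.40 (SE, adjusted p = 0.497, limma).

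Genes that act beside Commd1 did not pass either. Of 16 genes of the COMMD, CCC and retriever complexes 0 were called in the limma fit, against 1.06% of all genes. At an unadjusted p under 0.05 there were also 0, with Vps26c at 0.72 ± 0.35 and Ccdc93 at -0.57 ± 0.36 (SE). Of 15 copper-handling genes 0 were called, against 1.06% of all genes, and 5 (33.3%) had an unadjusted p under 0.05, against 2644 of all 20323. The median difference of the list was -0.14, and of these 5 genes 2 had positive and 3 negative differences. Sod1, the copper-zinc superoxide dismutase gene, differed by 1.36 ± 0.39 (SE, adjusted p = 0.0993, limma), and Mt3, a brain metallothionein gene, by 1.80 ± 0.59 (SE, adjusted p = 0.162, limma). The other 3 had at most 17 reads per Nrg-1β1 library: the ceruloplasmin gene Cp at -1.97 ± 0.54, the copper pump gene Atp7a at -1.23 ± 0.52 and the copper chaperone gene Atox1 at -1.04 ± 0.49 (SE, adjusted p = 0.0807, 0.302 and 0.375, limma). Of the 9 Sm core genes, the list around Snrpn, 0 were called, against 1.06% of all genes, and 0 had an unadjusted p under 0.05. Among the partners of the members Meg3, the maternally expressed noncoding RNA beside Dlk1, differed by 0.57 ± 0.34 (SE, adjusted p = 0.518, limma).

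**Figure D4:**
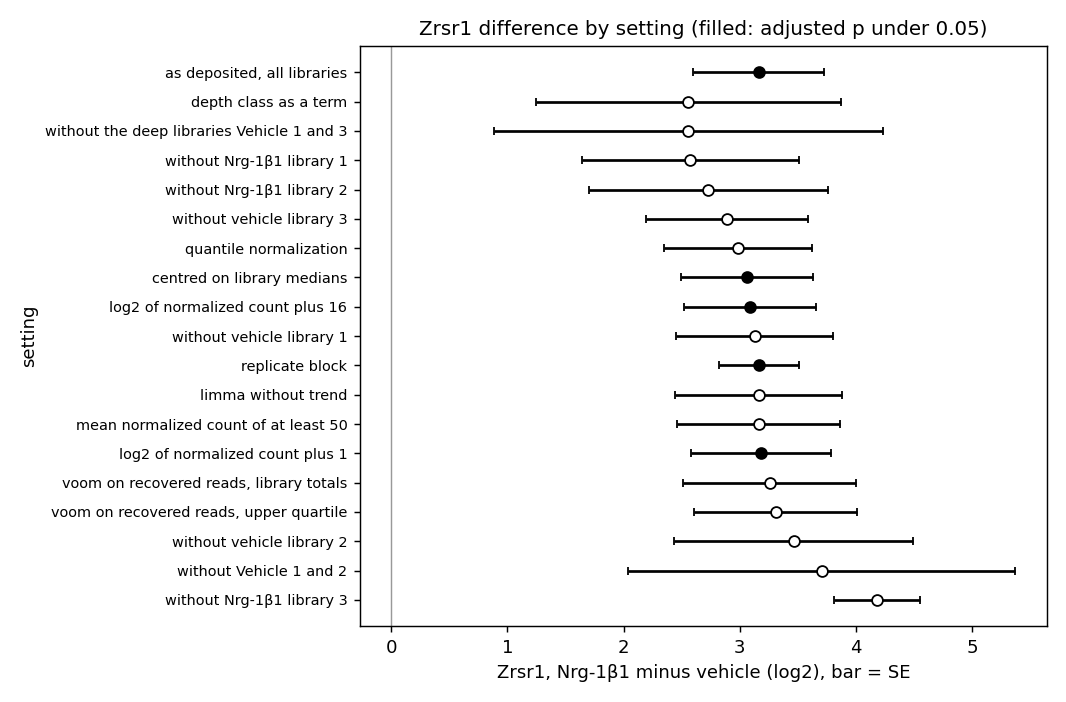
Zrsr1 difference, Nrg-1β1 minus vehicle on the log2 scale, with its SE as a bar, under the fit as deposited and 18 alternatives, with filled points where the adjusted p was under 0.05. Every value lies between 2.56 and 4.18, and 4 of the 18 alternatives are filled.

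Across 18 alternative settings the Zrsr1 difference lay between 2.56 and 4.18, and the call held in 4 of them. The plot of the Zrsr1 difference by setting shows that the direction did not vary while the adjusted p did. Zrsr1 minus Commd1 ranged from 2.34 to 4.55 over the 17 alternatives in which both genes were measured. As the groups of Zrsr1 do not overlap, leaving out libraries could not turn its direction.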

How the data were processed

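RNA of 6 libraries, 3 vehicle and 3 Nrg-1β1, was sequenced from NEB kit libraries, per the labels' protocols. Per the submitters' processing notes, Trimmomatic and Bowtie2 were used. No source used here gives their versions, the build, the counter, the strand setting or the normalization. The authors deposited log2 values. Unlogged and less 4, all were whole multiples of 1 step per library within 0.02 of a read, so they were read as log2(normalized count + 4). Of 27102 rows, 6779 are blank throughout. Of 1917 rows with only a number, 980 were named from RefSeq on GRCm38.p6.

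The comparison was limma 3.58.1 with trend (R 4.3.3) on the log2 values of 20323 genes, with group as the only term and Benjamini-Hochberg adjustment at 0.05. It was run on simulated counts with the same dispersion for every gene and no differences of sex or cell mix. That run therefore cannot show how the fit performs on these libraries. Negative binomial models were not run, and the recovered reads entered limma-voom only as alternatives. The members and lists were chosen with earlier results of these data known. Named were the members, their relatives, hosts and partners, the called genes of each list (up to 6) or else its 2 smallest p with at least 10 reads in a library of each group, and the 5 genes most like Zrsr1. The limma p-values and SEs rest on the spread between libraries, each taken as 1 mouse, moderated for each gene towards the trend over all genes. For Zrsr1 the SE of 0.57 is thus smaller than its own SDs of 0.58 and 1.77 alone would give. The SEs of within-library differences, such as Zrsr1 minus Commd1, are not moderated. Depth per library was 567073 to 72953034 reads. Intervals are exact binomial (Clopper-Pearson), floors are 3 reads, and both cover counting error only, without molecular identifiers. Alternatives were other constants, scalings, filters, limma-voom on recovered reads, depth class as a term, a replicate block and left-out libraries.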

Additional observations from a re-analysis of the deposited data

How the results depend on the processing

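The Zrsr1 difference kept its sign in all 18 alternatives. It stayed called with constants of 1 (3.18) and 16 (3.09), with centring on library medians (3.06) and with the replicate block (3.16). It was not called after quantile normalization (2.98), without the trend (3.16), with only genes that averaged at least 50 normalized counts (3.16), with voom on the recovered reads by library totals (3.26) or upper quartile (3.31), with depth class as a term (2.56), without vehicle libraries 1 and 3 (2.56) or 1 and 2 (3.70), or with any 1 library left out (2.57 to 4.18). The genes called among the 10 were then 0, and the cause was not tested. Their adjusted p ran from 0.0603 to 0.826 in these settings (limma). Both voom scalings moved the median of all genes, to 0.27 and 0.30, so their Zrsr1 values include that shift.

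Over all genes 216 were called, 214 after centring and 168 with the constant 16. The count was 129 with the constant 1, 65 after quantile normalization, 49 among the genes that averaged at least 50, 31 and 14 with voom, 21 without the trend, 627 with the replicate block, and 0 with depth class as a term or without either pair of vehicle libraries. With 1 library left out it was 0 to 56. Among the imprinted genes outside the 10, the count of 1 became 3 with the replicate block, stayed 1 with both constants, centring, quantile normalization and without vehicle library 1, and was otherwise 0 (0 to 1 with 1 library left out). Same-numbered libraries did not deviate together (correlations -0.31, -0.05 and -0.31 over genes), while vehicle library 3 and Nrg-1β1 library 1 had 0.34. The libraries were therefore taken as unpaired. With 3 libraries per group this check cannot exclude a shared batch or litter.

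Signs turned only for genes that were not called. With depth class as a term or without vehicle libraries 1 and 3, Commd1 was 0.21, Impact -0.19 and Zrsr2 0.29. Nnat was -0.16 after quantile normalization and -0.14 without vehicle library 2 (-0.14 to 0.44 with 1 library left out). Peg3 was -0.0084 without vehicle libraries 1 and 2. Plagl1 was 0.0081 after quantile normalization, 0.021 with voom at the upper quartile, and -0.51 to 0.15 with 1 library left out (0.040, 0.15 and 0.019 without Nrg-1β1 library 1 or 3 or vehicle library 2). Snrpn was 0.54 and 0.52 with voom and 0.16 without Nrg-1β1 library 1 (-0.43 to 0.16 with 1 left out). Zrsr2 was 0.18 without Nrg-1β1 library 1 and 0.094 without vehicle library 1 (-0.26 to 0.18 with 1 left out). Commd1, Plagl1, Dlk1 and Snrpn had 0 to 19 reads in the shallow libraries, which limits what could be seen in them.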
